A study of Mus musculus with 9 samples.

Results

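The keratin-associated proteins (KAPs, genes named Krtap) were described here in cells of neonatal mouse back skin, through every probe set of the deposited table that is annotated to exactly 1 symbol starting with Krtap. This gave 44 genes of the 19938 genes measured, each with a single probe set. By family number 16 are high sulphur, 12 ultrahigh sulphur and 13 high glycine-tyrosine KAPs, and Krtap16-3, Krtap31-1 and Krtap31-2 were left unassigned. The study hybridised 9 independent preparations to Affymetrix Mouse Gene 1.0 ST arrays, 1 array each. The 4 SKP arrays (replicates 3, 4, 5 and 6) hold skin-derived precursor cells, which were cultured from dissociated skin of postnatal day 4 mice and taken at primary passage as floating colonies; the strain of these mice is not given in the sources used here. The 5 sorted arrays (replicates 2, 16, 17, 18 and 20) hold uncultured cells of postnatal day 4 Sox2:EGFP mice, whose EGFP reports Sox2, sorted as EGFP-positive and CD34-negative. Culture and the choice of cells therefore differ together between the groups.

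KAPs are small proteins of the hair shaft. They are made by the differentiating keratinocytes of the follicle, mainly in the cortex and cuticle of the forming shaft, after the hair keratins have been switched on. They fill the matrix between keratin filaments and cross-link them, the high and ultrahigh sulphur KAPs through cysteine disulphide bonds and the glycine-tyrosine KAPs as small, tyrosine-rich proteins. The dermal papilla, where Sox2 marks mesenchymal cells, lies directly against these keratinocytes but is not known to make KAPs.

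Sorted arrays 2 and 20 also stood apart from the other sorted arrays in genes other than KAPs. Cd34, selected against in the sort, was at 10.19 and 10.27 on them (log2 RMA level, the deposited normalised signal) against 7.82, 7.59 and 7.31 on replicates 16, 17 and 18. The 20 epidermal keratinocyte markers averaged 9.57 and 10.78 on replicates 2 and 20, 9.05, 8.95 and 9.02 on replicates 16, 17 and 18, and 6.65 to 6.91 on the SKP arrays. For 12 dermal papilla markers the mean was 10.21 and 9.64 on replicates 2 and 20, beside 11.23 to 11.39 on the other sorted arrays and 6.29 to 6.37 in SKPs. Sox2 itself was at 8.24 to 9.25 on the sorted arrays and at 5.78 to 6.41 on the SKP arrays. Results are given with and without replicates 2 and 20, a choice made with these differences known. Replicates 2 and 20 also had the lowest KAP means of the sorted arrays (5.89 and 5.65). Leaving them out therefore widens the KAP differences by construction. Results without them describe sorted replicates 16, 17 and 18 and are not a separate test. In these bulk samples, fewer cells of a type and less RNA per cell cannot be told apart.

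Averaged over the 44 genes, KAP RNA was higher in 3 of the 5 sorted preparations than in the SKPs and the other sorted arrays. The mean level over all 44 genes was 6.71, 6.73 and 7.37 on sorted replicates 16, 17 and 18, but 5.89 and 5.65 on replicates 2 and 20 and 5.72 to 6.01 on the SKP arrays. With all arrays, 3 of 44 KAP genes were lower in SKPs (Krtap15, Krtap11-1 and Krtap8-1) and 0 higher, by limma (p-values adjusted by Benjamini-Hochberg across the 19938 genes, threshold 0.05). That is 6.82% lower, beside 16.9% lower and 20.2% higher among all genes tested, so the share called was below the background. At an unadjusted p under 0.05, 6 KAP genes were lower and 0 higher. Without sorted replicates 2 and 20, 21 of 44 were lower (47.7%, against 21.1% of all genes) and 0 higher (25.4% of all genes), and in 21 of 44 every SKP array lay below every remaining sorted array, against 22.9% of all genes. The 3 calls were all lost on leaving out any SKP array or any of sorted replicates 16, 17 and 18, whereas 6 genes were lower without replicate 2 and 10 without replicate 20. The median log2 difference (SKP minus sorted) was -0.20 over the KAP genes and 0.07 over all genes, and -0.38 and 0.05 without replicates 2 and 20.

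**Figure D1:**
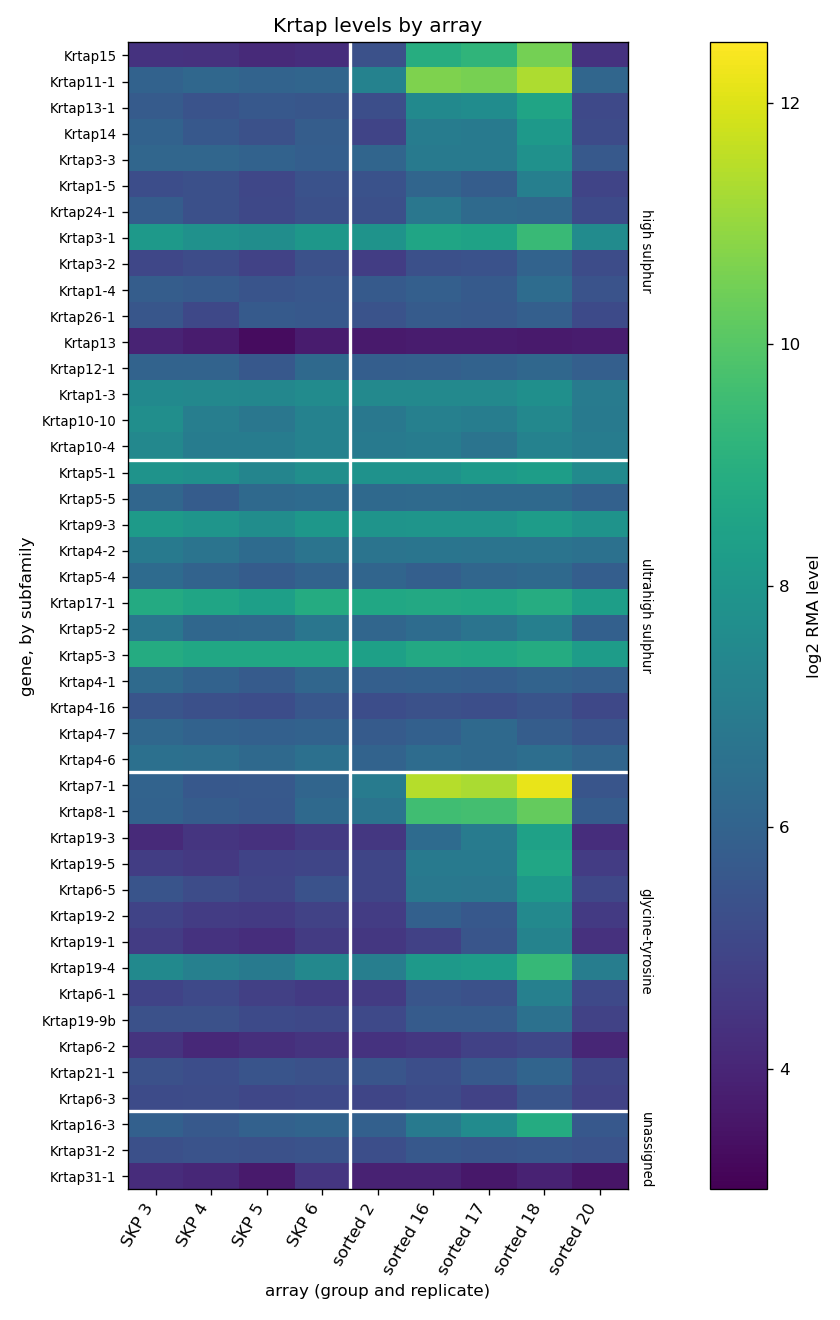
The heat map shows the log2 RMA level of the 44 KAP genes (rows, by subfamily and by their difference) on the 9 arrays (columns, named by group and replicate). The bright cells lie on sorted arrays 16, 17 and 18 in the high sulphur and glycine-tyrosine blocks, for example 11.44, 11.30 and 12.19 for Krtap7-1, while most rows of the ultrahigh sulphur block vary little; Krtap5-2, at 5.92 to 7.11 on the sorted arrays, is the exception that spans over 1 log2 unit.

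The promoters of the 3 called genes are shown with those of Krtap17-1 and Krtap5-3, ultrahigh sulphur genes with like signal in both groups. This sets a TATA sequence that most KAP promoters hold, and a LEF1-type sequence, beside the 2 patterns of measured signal. How far probe-set background sets the signal of Krtap17-1 and Krtap5-3 was not tested. The sequences are RefSeq's (build GRCm38.p6), end at the base before the annotated start, and run 5′ to 3′ on the gene's strand. They cover chr16:89571184-89571433, minus strand for Krtap11-1, chr16:88828759-88829008, plus strand for Krtap15 and chr16:89487953-89488202, minus strand for Krtap8-1. For the other 2 they cover chr11:99993995-99994094, minus strand for Krtap17-1 and chr7:142201264-142201363, plus strand for Krtap5-3. The lengths differ: 250 bases are shown for each of the 3 called genes and only 100 bases for Krtap17-1 and Krtap5-3. Capitals mark TATAAA, the usual letters of a TATA box, and CTTTGAA, a sequence of the kind bound by LEF1 and TCF factors, on either strand.
Krtap11-1: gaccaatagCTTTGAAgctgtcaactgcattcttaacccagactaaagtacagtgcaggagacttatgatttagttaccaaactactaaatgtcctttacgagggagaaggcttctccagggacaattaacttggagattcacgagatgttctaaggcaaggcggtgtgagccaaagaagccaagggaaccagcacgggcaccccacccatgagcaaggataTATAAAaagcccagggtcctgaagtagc
Krtap15: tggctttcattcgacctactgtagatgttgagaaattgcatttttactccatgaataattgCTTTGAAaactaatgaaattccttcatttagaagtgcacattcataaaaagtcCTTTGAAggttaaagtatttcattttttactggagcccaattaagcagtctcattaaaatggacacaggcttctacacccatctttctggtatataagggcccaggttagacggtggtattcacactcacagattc
Krtap8-1: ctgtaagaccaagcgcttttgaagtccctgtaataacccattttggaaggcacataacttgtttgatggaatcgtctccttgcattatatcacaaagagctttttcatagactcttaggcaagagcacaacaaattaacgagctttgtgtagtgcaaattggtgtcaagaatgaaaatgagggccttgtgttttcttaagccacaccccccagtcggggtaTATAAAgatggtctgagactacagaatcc
Krtap17-1: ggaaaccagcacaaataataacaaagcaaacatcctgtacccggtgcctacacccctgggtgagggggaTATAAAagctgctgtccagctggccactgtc
Krtap5-3: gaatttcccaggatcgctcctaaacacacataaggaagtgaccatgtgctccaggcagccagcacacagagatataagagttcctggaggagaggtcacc

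TATAAA lay 28 bases before the start of Krtap11-1, 29 before that of Krtap8-1 and 31 before that of Krtap17-1, and did not occur in the windows shown for Krtap15 and Krtap5-3. Both of those windows hold the letters TATAAG, which the exact search does not count. The lack of TATAAA there therefore does not say that a TATA box is lacking. Promoters were found for 40 of the 44 genes. TATAAA, searched on both strands of the 250 bases before the start, was present in 31 of these 40 (77.5%) and in 12.4% of all 32851 mouse promoters in the table. By class this both-strand share was 76.9% in the high sulphur, 83.3% in the ultrahigh sulphur and 66.7% in the glycine-tyrosine genes. On the gene's own strand and starting 20 to 40 bases before the start, it was present in 57.5% of KAP promoters and 1.99% of all promoters. CTTTGAA was present in 7 of 40 KAP promoters (17.5%, against 4.46% of all), namely those of Krtap11-1, Krtap15, Krtap14, Krtap24-1, Krtap1-5, Krtap19-3 and Krtap16-3. By class, CTTTGAA was present in 5 of 13 high sulphur, 1 of 12 glycine-tyrosine, 0 of 12 ultrahigh sulphur and 1 of 3 unassigned genes. The promoter of the called gene Krtap8-1 did not hold CTTTGAA. The related CTTTGAT was present in 3 of 40 (7.5%, against 3.21%). CAATAAA and CGTAAAA, letters that HOX13-type homeodomains can bind, were present in 0 of 40 (against 4.2% and 0.645%). Each match only says that these letters occur in the window.

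Among the high sulphur KAPs, 2 of 16 genes were lower in SKPs with all arrays (a share below the 16.9% of all genes) and 8 of 16 without sorted replicates 2 and 20 (50%, against 21.1%), with median log2 differences of -0.36 and -0.70. Krtap11-1, a high sulphur KAP of the hair cortex, was at 5.98, 6.18, 6.03 and 6.09 on SKP arrays 3, 4, 5 and 6 and at 7.23, 10.68, 10.54, 11.32 and 6.13 on sorted arrays 2, 16, 17, 18 and 20. Its SKP values covered 0.20 on the log2 scale, while the sorted values ran from the SKP level on replicate 20, through a slightly raised one on replicate 2, to 3 high ones. Group means were 6.07 ± 0.09 (SD, n = 4) for SKPs and 9.18 ± 2.34 (n = 5) for sorted cells, an 8.62-fold lower level in SKPs with a log2 difference of -3.11 ± 1.00 (SE, limma adjusted p = 0.0330). Without replicates 2 and 20 it was 27.4-fold lower (adjusted p = 1.6e-07). The limma model takes 1 variance per gene for both groups. With all arrays the SDs of the groups differed widely here and in the other called genes, Krtap15 and Krtap8-1. A model with unequal variances was not fitted.

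Krtap15 was at 4.38, 4.34, 4.13 and 4.23 on the SKP arrays and at 5.36, 8.93, 9.22, 10.50 and 4.38 on sorted arrays 2, 16, 17, 18 and 20. It was the 1 member of 44 whose groups did not overlap (every SKP array below every sorted array, as in 15.5% of all genes), and barely so, since its highest SKP and lowest sorted values both round to 4.38. The log2 difference was -3.41 ± 1.13 (SE, limma adjusted p = 0.0383), 10.6-fold, and 38.8-fold without replicates 2 and 20.

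Other high sulphur genes of the chromosome 16 cluster were not called with all arrays. Krtap13-1 was at 5.74, 5.43, 5.63 and 5.53 on the SKP arrays and at 5.30, 7.51, 7.61, 8.55 and 5.09 on sorted arrays 2, 16, 17, 18 and 20. Krtap14 was at 6.00, 5.60, 5.35 and 5.80 on the SKP arrays and at 4.96, 7.0, 6.89, 8.15 and 5.17 on the sorted arrays in the same order. In both genes replicates 2 and 20 lay below every SKP array and the other sorted arrays above. The log2 differences were -1.23 for Krtap13-1 (limma adjusted p = 0.177) and -0.75 for Krtap14 (adjusted p = 0.357), and -2.31 (adjusted p = 4.8e-05) and -1.66 (adjusted p = 0.00157) without those replicates.

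Of the 6 Krtap1 and Krtap3 genes, high sulphur KAPs of the cluster among the type I hair keratin genes, 3 were highest on the same sorted arrays with smaller differences. Krtap3-3 was at 6.15, 6.14, 5.99 and 5.84 on the SKP arrays and at 6.09, 6.90, 6.86, 7.82 and 5.66 on the sorted arrays. Krtap3-1 was at 8.12, 7.82, 7.65 and 8.02 on the SKP arrays and at 7.89, 8.57, 8.48, 9.45 and 7.59 on the sorted arrays. Krtap1-5 was at 5.26, 5.31, 5.03 and 5.41 on the SKP arrays and at 5.41, 6.10, 5.82, 7.09 and 4.95 on the sorted arrays. Replicate 18 was the highest of the 9 arrays for all 6 genes, and replicate 20 was the lowest for these 3. None was called with all arrays (limma adjusted p = 0.207, 0.266 and 0.204), and all 3 were lower without replicates 2 and 20, by 2.24-, 1.90- and 2.12-fold. The other 3 were called in neither comparison: Krtap3-2 and Krtap1-4 differed by -0.22 and -0.17 on the log2 scale and Krtap1-3 by 0.05.

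Of the 13 glycine-tyrosine genes, 1 was lower in SKPs with all arrays (7.69%, below the 16.9% of all genes) and 11 were lower without sorted replicates 2 and 20 (84.6%, against 21.1%), with median log2 differences of -0.83 and -1.39. Krtap7-1, a small glycine- and tyrosine-rich KAP, was at 6.02, 5.60, 5.66 and 6.11 on the SKP arrays and at 6.94, 11.44, 11.30, 12.19 and 5.52 on sorted arrays 2, 16, 17, 18 and 20. It covered the widest range among the sorted arrays of any KAP gene, 6.67 on the log2 scale. Its log2 difference of -3.63 ± 1.30 (SE, 95% confidence interval -6.52 to -0.74) was the largest of the 44 and missed the threshold (limma adjusted p = 0.0511), which it passed with quantile normalization (0.0475) and with median centring (0.0492). Without replicates 2 and 20 it was 55.6-fold lower in SKPs (adjusted p = 2.18e-07).

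Krtap8-1, another glycine-tyrosine KAP, was at 6.00, 5.76, 5.60 and 6.23 on the SKP arrays and at 6.66, 9.58, 9.67, 10.26 and 5.76 on the sorted arrays. Group means were 5.90 ± 0.28 (SD, n = 4) for SKPs and 8.39 ± 2.02 (n = 5) for sorted cells, and the 5.61-fold lower level in SKPs had a limma adjusted p of 0.0474. Without replicates 2 and 20 the fold was 15.3. As in Krtap7-1, Krtap11-1 and Krtap15, sorted replicate 2 lay above all SKP arrays and replicate 20 did not stand clear of them.

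In the Krtap19 and Krtap6 genes, 2 further glycine-tyrosine families, replicate 18 stood above the rest. Krtap19-3 was at 4.12, 4.46, 4.34 and 4.60 on the SKP arrays and at 4.54, 6.33, 6.96, 8.42 and 4.23 on sorted arrays 2, 16, 17, 18 and 20. Krtap19-5 was at 4.71, 4.56, 4.91 and 4.99 on the SKP arrays and at 4.98, 6.93, 6.86, 8.63 and 4.68 on the sorted arrays. Krtap6-5 was at 5.45, 5.22, 4.98 and 5.39 on the SKP arrays and at 5.00, 6.81, 6.76, 8.15 and 5.02 on the sorted arrays. In these 3 genes replicates 2 and 20 lay within the range of the SKP arrays, unlike Krtap7-1 and Krtap8-1 on replicate 2. Their log2 differences were -1.72, -1.62 and -1.09 with all arrays (limma adjusted p = 0.102, 0.0973 and 0.176) and -2.86, -2.68 and -1.98 without those replicates (adjusted p = 4.62e-04, 4.67e-04 and 7.87e-04). Krtap19-2 and Krtap19-4 differed by -0.90 and -0.71 (adjusted p = 0.193 and 0.230), and Krtap6-3 by 0.05 (95% confidence interval -0.24 to 0.34).

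**Figure D2:**
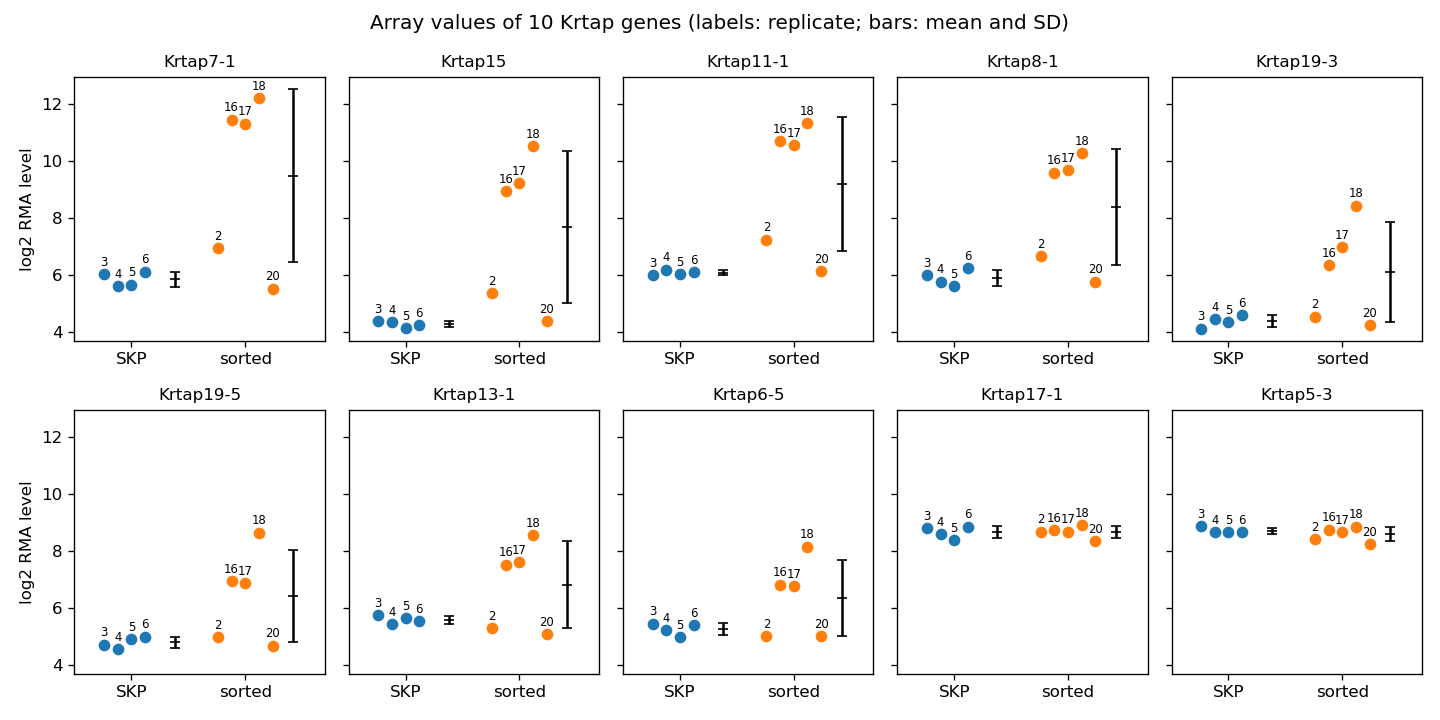
Each panel plots the log2 RMA level of 1 KAP gene on the 4 SKP arrays and the 5 sorted arrays, with replicate numbers beside the points and the mean and SD of each group as a bar. Sorted replicates 16, 17 and 18 stand above all SKP arrays in the first 8 genes, and all arrays lie between 8.24 and 8.89 in Krtap17-1 and Krtap5-3.

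In measured signal, the ultrahigh sulphur KAPs, the most cysteine-rich class, differed by less than 2-fold between SKPs and sorted cells. How far probe-set background sets the level of these genes was not tested. None of the 12 genes was lower or higher by limma with all arrays, and 0 had an unadjusted p under 0.05 in either direction. In all 12 the difference was bounded below 2-fold in both directions by its 95% confidence interval, as it was for 77.7% of all genes, 8 of 16 high sulphur and 3 of 13 glycine-tyrosine genes. Krtap17-1 was at 8.80, 8.58, 8.38 and 8.85 on the SKP arrays and at 8.67, 8.73, 8.67, 8.89 and 8.34 on sorted arrays 2, 16, 17, 18 and 20. Its log2 difference was -0.01 (95% confidence interval -0.30 to 0.29), a sign that turned on median centring (0.06). Krtap5-3 was at 8.86, 8.65, 8.65 and 8.65 on the SKP arrays and at 8.41, 8.74, 8.65, 8.85 and 8.24 on the sorted arrays, with a log2 difference of 0.13 (-0.16 to 0.41).

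Group differences of the other named ultrahigh sulphur genes were also small. The differences of Krtap4-6, Krtap4-7, Krtap4-16 and Krtap4-1, from the Krtap4 family of the hair keratin cluster, were 0.19, 0.18, 0.13 and 0.13 on the log2 scale. Krtap5-1 had the largest difference of the class, -0.27 (limma adjusted p = 0.230), and was the 1 gene of the 12 called lower without replicates 2 and 20 (-0.43, adjusted p = 0.0498). KAP genes are close copies of their neighbours, so a probe set may also bind RNA of other members, and levels of single members are uncertain to that degree.

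**Figure D3:**
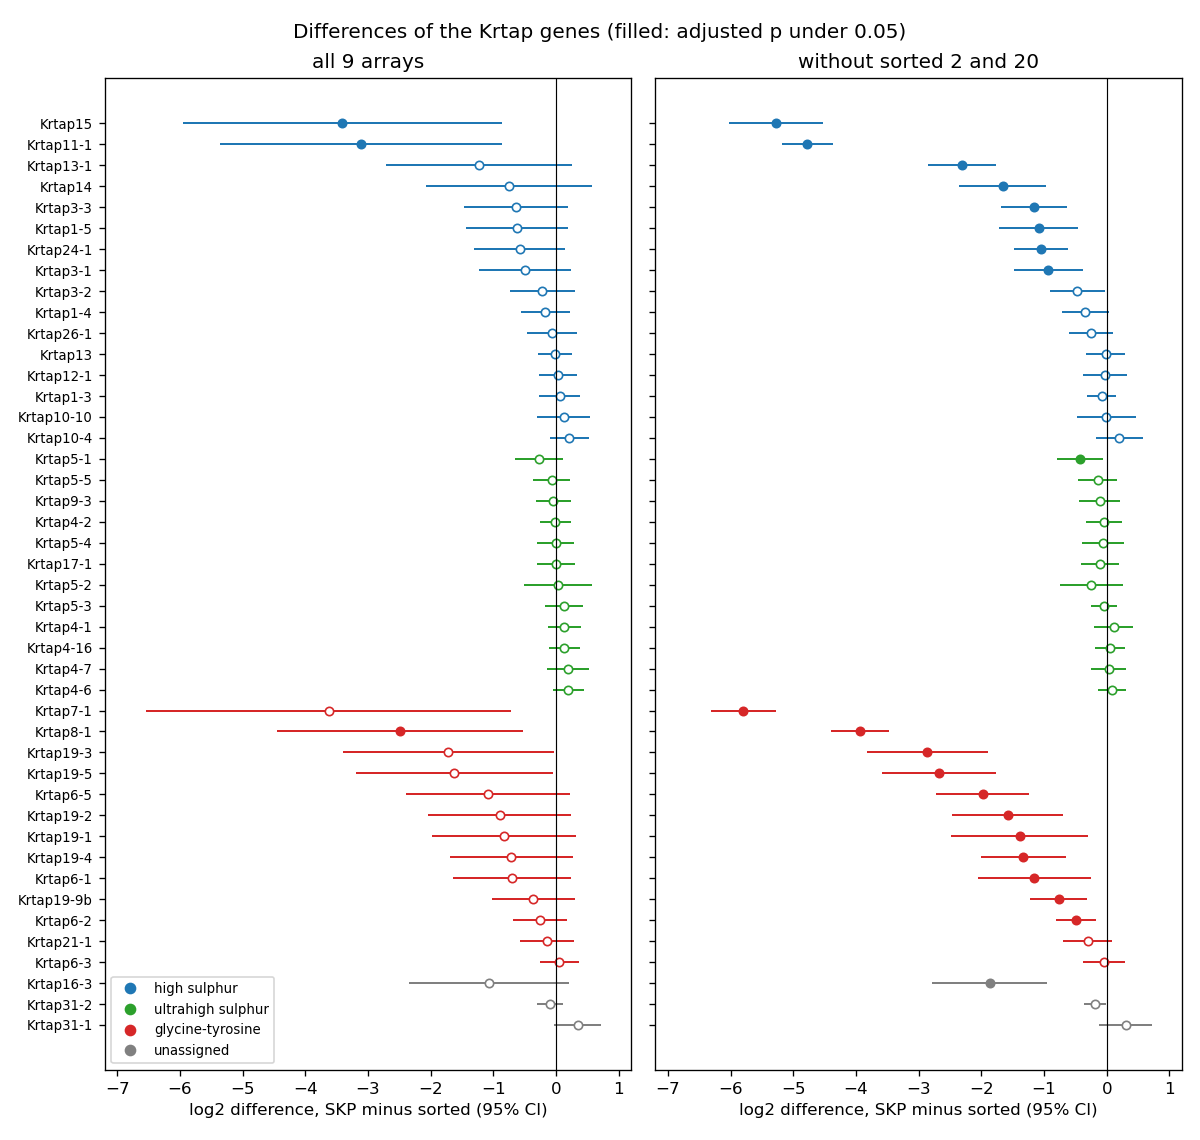
Points give the log2 difference (SKP minus sorted) of each of the 44 KAP genes with its 95% confidence interval, with all arrays on the left and without sorted replicates 2 and 20 on the right. Filled points mark the 3 and 21 genes with an adjusted p under 0.05; all 12 intervals of the ultrahigh sulphur genes on the left lie between -0.64 and 0.55.

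The calls are also given by position, with no test between positions. In RefSeq's annotation a cluster on chromosome 16 holds 21 of the 44 genes, and 15 lie among the type I keratin genes on chromosome 11, 5 on chromosome 7 and 3 on chromosome 10. All 3 called genes are in the chromosome 16 cluster. Without replicates 2 and 20, 17 of 21 genes were lower in that cluster, 3 of 15 on chromosome 11, 1 of 5 on chromosome 7 and 0 of 3 on chromosome 10, against 21.1% of all genes. Within the high sulphur class these counts were 5 of 7 on chromosome 16, 3 of 6 on chromosome 11 and 0 of 3 on chromosome 10. All 13 glycine-tyrosine genes lie on chromosome 16 and all 12 ultrahigh sulphur genes on chromosomes 11 and 7. Between these classes subfamily and position therefore cannot be told apart. Each shares a chromosome with high sulphur genes. Without replicates 2 and 20, 0 of 7 ultrahigh sulphur genes were lower on chromosome 11, beside the 3 of 6 high sulphur genes. On chromosome 16, 11 of 13 glycine-tyrosine genes were lower, beside the 5 of 7 high sulphur genes. Krtap16-3, an unassigned gene of the chromosome 16 cluster, was at 5.91, 5.66, 5.95 and 6.07 on the SKP arrays and at 5.93, 6.86, 7.58, 8.86 and 5.62 on sorted arrays 2, 16, 17, 18 and 20. Replicate 18 was the highest array and replicate 20 the lowest, and the gene was 3.65-fold lower in SKPs without replicates 2 and 20 but not called with all arrays (limma adjusted p = 0.172). Krtap31-1 and Krtap31-2, on chromosome 11, differed by 0.34 and -0.10 on the log2 scale and were called in neither comparison.

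Levels of the glycine-tyrosine and high sulphur KAPs varied more among the sorted preparations than among the SKPs, and those of the ultrahigh sulphur KAPs did not. The sorted arrays spanned at least 1 log2 unit in 22 of 44 KAP genes (50%), against 10.9% of all genes, and the SKP arrays in 0 of 44, against 2.11%. The median range over the sorted arrays was 2.86 for glycine-tyrosine, 1.47 for high sulphur and 0.41 for ultrahigh sulphur genes, and 0.43 for all genes. Over the SKP arrays it was 0.43, 0.46 and 0.53 for these classes, and 0.32 for all genes. Sorted replicate 18 was the highest of the 9 arrays in 29 of 44 KAP genes, among them all 13 glycine-tyrosine genes, and in 9.06% of all genes. Replicate 20 was the lowest sorted array in 33 of 44, against 30.7% of all genes.

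Olfactory receptor genes, which have no known role in skin, gave a rough reference for low levels, although probe sets differ in their own background. The 95th percentile of 1027 such genes lay between 5.95 and 6.26 on every array. On the SKP arrays 11 to 15 of the 44 KAP genes were above it, and on sorted arrays 2 and 20 15 and 12 were. On sorted arrays 16, 17 and 18, 25, 27 and 31 genes were above it. Of the 44 genes, 10 were above the reference on all 9 arrays, with 0 of the 10 called, and 18 were above it on at least 1 sorted array and on no SKP array. Among these 18 were Krtap7-1, Krtap11-1, Krtap15, Krtap13-1, Krtap19-3 and Krtap19-5, whose SKP levels were thus within the range of genes taken as silent.

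Hair shaft keratins, the filament proteins that KAPs surround, were high on the same sorted arrays. Of 13 measured hair shaft keratins 1 was lower in SKPs with all arrays, Krt35, a share of 7.69% beside 16.9% of all genes. Without replicates 2 and 20, 11 were lower, 84.6% beside 21.1%. Mean levels were 7.71, 7.68 and 8.16 on sorted replicates 16, 17 and 18, with 6.28 and 6.24 on replicates 2 and 20 beside 5.92 to 6.35 in SKPs. Krt33a, a cortex keratin, was at 6.13, 6.08, 5.46 and 6.48 on the SKP arrays and at 6.40, 9.87, 10.06, 10.87 and 6.02 on sorted arrays 2, 16, 17, 18 and 20 (limma adjusted p = 0.0613). Krt35, which is made early in the shaft, was at 6.55, 6.12, 6.22 and 6.50 on the SKP arrays and at 7.34, 9.91, 9.58, 9.87 and 7.87 on the sorted arrays (5.92-fold lower in SKPs, adjusted p = 0.00346). Thus Krt33a lay within its SKP range on replicates 2 and 20, and Krt35 lay above its SKP range on all sorted arrays.

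Genes of the inner root sheath, the follicle layer that encloses the shaft, were on average above the SKP level on all 5 sorted arrays. Their 8 keratins averaged 9.88, 10.02 and 9.76 on sorted replicates 16, 17 and 18, 7.01 and 6.83 on replicates 2 and 20 and 5.39 to 5.72 on the SKP arrays. With all arrays 7 of 8 were lower in SKPs (87.5%, beside 16.9% of all genes). Krt25 was at 8.96 and 8.10 on replicates 2 and 20, above its SKP range of 5.82 to 6.14. Single genes departed from this mean: Krt74 was at 4.31 on replicate 2, below its SKP range of 4.78 to 5.29, and Krt72 was at 6.11 and 5.98 on replicates 2 and 20, at its SKP range of 5.47 to 6.04. Of 7 other shaft and sheath genes 4 were lower with all arrays (57.1%, beside 16.9% of all genes). Tchh, trichohyalin of the inner root sheath, was 13.5-fold lower in SKPs, and S100a3, a calcium-binding protein of the shaft cuticle, 6.19-fold (39.0-fold and 14.8-fold without replicates 2 and 20).

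Transcription factors listed as regulators of shaft differentiation were lower in SKPs in 9 of 11 cases (16.9% of all genes). Without replicates 2 and 20, 11 of 11 were lower (21.1% of all genes). Some of them, such as Lef1 and Gata3, are not particular to the shaft. Foxn1 and Msx1 were the 2 not called with all arrays (limma adjusted p = 0.0641 for Msx1). Hoxc13, a homeobox regulator of hair keratin and KAP genes, was at 6.03, 5.71, 5.65 and 6.06 on the SKP arrays and at 6.42, 7.35, 7.21, 7.69 and 6.51 on sorted arrays 2, 16, 17, 18 and 20. All sorted arrays were above all SKP arrays, and Hoxc13 was 2.26-fold lower in SKPs (limma adjusted p = 0.00453). Foxn1, the gene of the nude mouse, was at 6.72, 6.18, 5.85 and 6.66 on the SKP arrays and at 6.51, 7.17, 7.67, 7.73 and 6.68 on the sorted arrays, and the groups overlapped (adjusted p = 0.0532). Lef1, the Wnt effector of both matrix and papilla, was 8.51-fold lower and Msx2 5.77-fold lower in SKPs. Gata3, a factor of the inner root sheath, was 10.6-fold lower, at 8.31 and 10.29 on replicates 2 and 20 and at 9.36 to 9.67 on the other sorted arrays.

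Of the lists of other cell types, the mean of the dermal papilla markers (12 of 12 lower in SKPs) had the order of the KAP mean across the sorted arrays in part. It was higher on replicates 16, 17 and 18 and lowest on replicate 20. Replicate 20 was the lowest sorted array for 10 of the 12 markers. Prom1 went the other way, at 7.97 and 8.34 on replicates 2 and 20 and at 6.47 to 6.58 on replicates 16 to 18, and Sox18 was highest on replicate 20 (9.61). Melanocyte markers (8 of 10 lower in SKPs, 1 higher) averaged 8.25 and 8.60 on replicates 2 and 20, 8.05 to 8.12 on replicates 16 to 18 and 6.76 to 7.08 in SKPs. Endothelial markers (1 of 5 lower) averaged 7.40 and 8.05 on replicates 2 and 20, 6.42 to 6.51 on replicates 16 to 18 and 6.26 to 6.71 in SKPs. Schwann cell markers (4 of 5 lower, 1 higher) averaged 8.98 to 9.68 on the sorted arrays and 7.30 to 7.85 in SKPs, and Merkel cell markers (1 of 6 lower) 6.53 to 7.41 and 6.12 to 6.52. The 1 Merkel cell marker called was Sox2 (log2 difference -2.53), whose EGFP reporter was used for the sort. The other Merkel cell markers differed by -0.37 to 0.02. The mean of the epidermal keratinocyte markers (16 of 20 lower in SKPs) was at its highest on replicate 20, where the KAP mean was at its lowest. Most single markers were highest there too, but not all. Ivl was at 5.90 and 5.73 on replicates 2 and 20 and at 7.31 to 7.40 on replicates 16 to 18. Grhl3 was at 7.24 and 7.28 on replicates 2 and 20 and at 7.63 to 7.83 on replicates 16 to 18. Among all genes 16.9% were lower and 20.2% higher in SKPs, so the endothelial (20%) and Merkel cell (16.7%) shares called lower were near the background. The part of these cell types in the KAP levels was not tested.

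**Figure D4:**
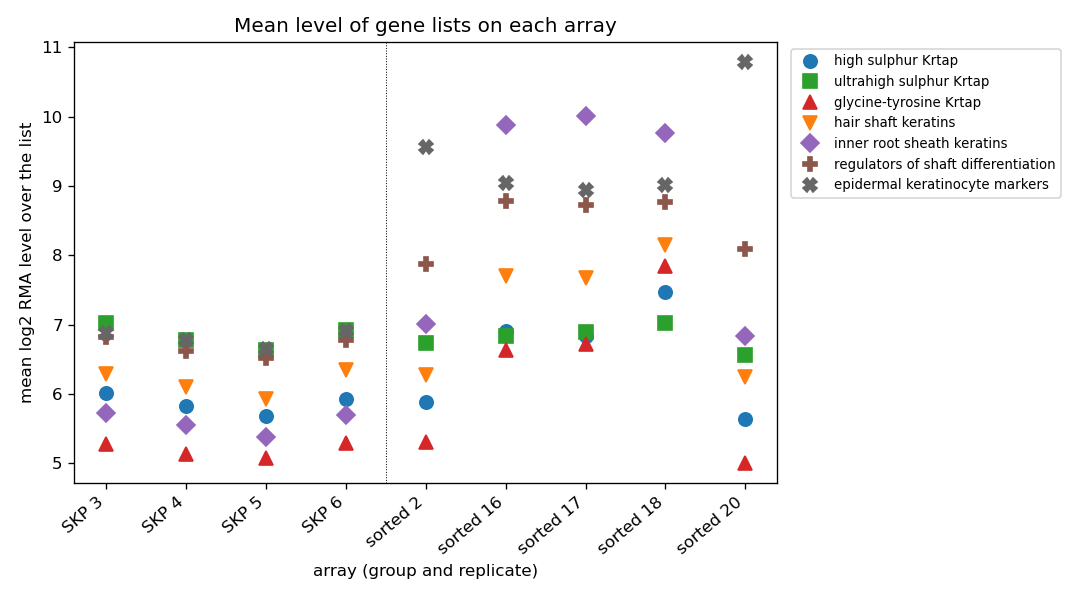
Symbols give the mean log2 RMA level of 7 gene lists on each of the 9 arrays. The high sulphur and glycine-tyrosine KAPs and the hair shaft keratins are raised on sorted replicates 16, 17 and 18, whereas the inner root sheath keratins, the regulators and the epidermal keratinocyte markers are above the SKP arrays on all 5 sorted arrays.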

How the data were processed

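The authors deposited log2 RMA levels, 1 per probe set and array; RMA, Affymetrix Expression Console and limma are named in the submitters' processing notes, without versions. The genome build is not given in the sources used here. RMA adjusts background, quantile-normalises the arrays and summarises probes. No detection p-values were used, and the number of arrays limits the precision. Of 35556 probe sets, 21789 have 1 symbol in the platform annotation, and for the 999 genes with several the brightest by mean was taken. All 44 KAP genes were found by Entrez identifier in RefSeq's table.

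The difference (SKP minus sorted) was fitted on all 19938 genes with limma 3.58.1 in R 4.3.3 (lmFit and eBayes, two-sided, Benjamini-Hochberg over all genes, no batch in the labels) and tested on simulated data. The labels call the preparations independent. The members, lists and tests were chosen with earlier results of these data known. Subfamilies follow the KAP family number; no protein sequences were used. In each subfamily the text names the 6 genes with the largest difference, the one with the highest mean and the one with the highest SKP mean, and of other lists the 2 with the largest difference, plus Hoxc13, Foxn1, Lef1 and Msx2; other genes (such as Krtap16-3, Krtap6-3, Krtap31-1, Krt72 and Cd34) were named after their values were seen. Alternatives were quantile normalization, median centring, removal of genes with a mean under 6.31, a mean over probe sets, array weights, trend and robust fitting, stricter thresholds, and leaving out arrays. Figures were drawn with matplotlib 3.10.9.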

Additional observations from a re-analysis of the deposited data

Results flagged for a closer look

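In 50 groups of values tested (the 21 KAP genes chosen by the rule and 4 list means, in each group of arrays), 2 had a single array far from the others, and chance flags about 1 in 20. Krtap5-3 was at 8.86 on SKP replicate 3, 0.20 above the other SKP arrays, which shared 1 value. Krtap4-6 was at 6.25 on SKP replicate 5, 0.22 below the nearest SKP array. Neither gene was called.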

How the results depend on the processing

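The count of KAP genes lower in SKPs (3) depended on the arrays used: it was 21 without sorted replicates 2 and 20, 20 with array weights, 0 at an adjusted p under 0.01, and 0 to 10 on leaving out 1 array. Genes higher numbered 1 with array weights (Krtap31-1) and 0 to 1 on leaving out 1 array. High sulphur genes lower (2) were 8 without both replicates, 8 with array weights, 1 without the genes of low mean level, 0 at an adjusted p under 0.01, and 0 to 6 on leaving out 1 array. Removing the genes of low mean level left 17 KAP genes. It took out Krtap15 (mean 6.16), while Krtap11-1 stayed called. Glycine-tyrosine genes lower (1) were 11 without both replicates, 10 with array weights, 2 with quantile normalization, with median centring or without the low genes, 0 at an adjusted p under 0.01, and 0 to 4 on leaving out 1 array. Ultrahigh sulphur genes lower (0) were 1 without both replicates and 1 with array weights. Hair shaft keratins lower (1) were 11 without both replicates, 11 with array weights, 3 with quantile normalization, 3 without the low genes, and 1 to 9 on leaving out 1 array. At an adjusted p under 0.01 the inner root sheath keratins lower fell from 7 to 4 and the shaft and sheath genes from 4 to 2. With the 99th percentile of olfactory receptors 9 KAP genes were above the reference on every SKP array. On sorted arrays 2, 16, 17, 18 and 20 the numbers were 10, 17, 18, 25 and 9. The sign of Krtap17-1 turned with median centring (0.065), array weights (0.0088) and single arrays left out (-0.084 to 0.0856), and that of Krtap5-3 with array weights (-0.0042) and without both replicates (-0.0423). The cause was not tested. No paired analysis was possible because the groups share no replicate number.

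Over its alternatives the adjusted p ran from 1.6e-07 to 0.0762 for Krtap11-1, from 2.8e-06 to 0.0859 for Krtap15 and from 9.57e-07 to 0.104 for Krtap8-1. For Krtap7-1, not called in the comparison as reported, it ran from 2.18e-07 to 0.111, and the gene was called in 7 of 16 alternatives.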

Other observations

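A further 15 probe sets carry a Krtap symbol together with other symbols and were kept out of the comparisons. The 1 shared by Krtap6-1, Krtap6-5 and neighbouring gene models followed the glycine-tyrosine genes. It was at 8.30, 8.12, 8.14 and 8.47 on SKP arrays 3, 4, 5 and 6 and at 8.40, 10.41, 10.38, 11.90 and 7.91 on sorted arrays 2, 16, 17, 18 and 20. The other 14, which carry symbols of the Krtap2, Krtap4, Krtap5, Krtap9, Krtap10 and Krtap20 families, lay between 7.03 and 8.99 on every array, and their group means differed by -0.12 to 0.12 on the log2 scale.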
